A study of Mus musculus with 12 samples.

Results

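The 32 genes described here encode the machinery by which the liver makes fatty acids and packs them into triglyceride. They were chosen by symbol: each row of the deposited gene count table whose symbol is one of the 32 was taken, and every symbol had exactly 1 row among the 55421 rows. All 32 also passed the filter on low counts, which kept 14076 genes. By role they comprise 4 regulators, 5 genes that supply acetyl-CoA and reducing power, 3 genes of chain synthesis, 4 elongases, 4 desaturases, 2 acyl-CoA synthetases, 9 genes of glycerolipid assembly and Pnpla3.

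RNA came from whole livers of adult male C57BL/6 mice of 2 transgenic strains. In Fra1hep the transgene encodes Fra-1 (gene Fosl1), and in Fra2hep it encodes Fra-2 (gene Fosl2); both proteins are Fos-related subunits of the transcription factor AP-1. Doxycycline represses the transgenes, and it was removed at 3 weeks of age for mutants and for the littermate controls caged with them, so that all 4 groups share this treatment. Each strain gave 3 mutants and 3 controls, all separate mice. Sampling was 2 months after induction by the titles and the design text, but the treatment field of the Fra2 mutants reads 9 months where that of their controls reads 2. If that field is right, age and transgene cannot be told apart in the Fra2 comparison. The labels name only the transgenes, with the promoter behind each one not given in the sources used here.

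De novo lipogenesis turns surplus carbohydrate into fat. Citrate leaves the mitochondrion and is cleaved to acetyl-CoA, which acetyl-CoA carboxylase and fatty acid synthase build into palmitate. Elongases and desaturases modify the chain, acyl-CoA synthetases activate it, and acyltransferases with lipins attach activated chains to glycerol. In liver this programme is switched by feeding, through SREBP-1c (from Srebf1), which responds to insulin, and ChREBP (from Mlxipl), which responds to sugar.

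Promoter sequence is shown first for 4 members. Of the members searched, Lpin3 and Me1 alone had a window that held the AP-1 motif. For Slc25a1 every mutant lay below every control, and Fasn is the central synthase. The sequences are from RefSeq on GRCm38.p6, run 5′ to 3′ on the strand of the gene, and carry the motif matches in capitals. In Lpin3 (chr2:160880510-160880675, plus strand, bases -160 to 6 around the start site) and Me1 (chr9:86695909-86696074, minus strand, bases -160 to 6) the capitals mark TGANTCA. In Slc25a1 (chr16:17928319-17928469, minus strand, bases -250 to -100) they mark the E-box CACGTG and then the NF-Y box CCAAT, which reads ATTGG on this strand. In Fasn (chr11:120824578-120824677, minus strand, bases -130 to -31) they mark CCAAT in either orientation, and the matches at -62 to -58 and at -59 to -55 overlap.
Lpin3: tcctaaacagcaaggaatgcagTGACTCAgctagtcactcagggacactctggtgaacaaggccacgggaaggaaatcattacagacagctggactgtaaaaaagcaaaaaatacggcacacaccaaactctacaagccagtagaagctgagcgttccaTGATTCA
Me1: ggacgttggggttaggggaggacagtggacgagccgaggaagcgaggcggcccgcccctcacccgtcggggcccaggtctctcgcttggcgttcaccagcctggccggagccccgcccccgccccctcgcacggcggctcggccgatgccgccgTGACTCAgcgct
Slc25a1: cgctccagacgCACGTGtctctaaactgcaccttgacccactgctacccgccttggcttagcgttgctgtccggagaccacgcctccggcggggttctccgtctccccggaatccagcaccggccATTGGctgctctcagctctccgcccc
Fasn: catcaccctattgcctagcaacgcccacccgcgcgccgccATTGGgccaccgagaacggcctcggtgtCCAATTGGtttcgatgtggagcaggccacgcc

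Windows from 250 bases before to 50 bases after the start were searched on both strands for 27 of the 32 members, the others being Dgat1, Dgat2, Fads1, Scd1 and Scd2. TGANTCA was present for 2 of these 27 members (7.41%), against 8.97% of all 27025 genes with a window. The Lpin3 window of the stretch shown held 2 matches, at -138 to -132 and at -1 to 6. Of all 32851 windows, 0.460% held 2 or more. The match of Me1 lay at -6 to 1. Lpin3 and Me1 each also had a window at another start, without a TGANTCA match. CACGTG was found for 5 members (Elovl5, Lpin2, Lpin3, Mlxipl and Slc25a1; 8.09% of all genes), TGACGTCA for Elovl5 and Pnpla3 (2.03%), and TCACNCCAC, the sterol element type of the LDL receptor gene, for Mlxipl (1.44%). CCAAT was found for 17 members (41.1% of all genes), and AGGTCA, a single nuclear receptor site, for 7 (18.1%). A match describes these letters and is not a measured binding site.

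Libraries held 16834041 to 20464807 counts, of which the 32 genes took 1.54% to 2.80%, and Scd1 alone gave 43.5% to 60.5% of the members' counts. Fosl1 had 172, 193 and 252 counts in the Fra1 mutants against 0, 0 and 1 in their controls. Fosl2 had 6821, 7718 and 8101 counts in the Fra2 mutants against 221, 861 and 297 in their controls. Of the adipocyte markers, Lep had 0 counts in every library and Adipoq and Plin1 at most 1, so RNA of fat tissue was not measurable by these genes. Other adipocyte markers were measured and are given with the cell type markers below. Fra2 control 1 stood apart: it was the lowest of its group for 27 of the 32 genes, with a median deviation of -0.46 log2 from the group mean, and it held 21 counts of Cfd and 9801 CPM of Car3, where the other libraries held at most 1 count and 16.0 to 1841 CPM. Fra2 mutant 2 was the highest of its group for 25 of the 32. CPM are counts divided by the scaled library size, in the usual unit. The p-values weigh each difference against the spread between these mice, estimated over all 4 groups.

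In livers expressing Fra-1, most of the lipogenic genes were measured at lower levels than in littermate controls, but 1 gene alone passed the test over all genes, and it rose. Lpin3, a phosphatidate phosphatase, was called higher. "Called" means a Benjamini-Hochberg adjusted p under 0.05 over all 14076 genes in edgeR's quasi-likelihood test. The 1 of 32 members called compares with 3.84% of all genes tested (2.9% higher and 0.938% lower). Over all genes this was 408 higher and 132 lower, or 674 and 102 without scaling factors, a setting that moves the median of all genes from 0.01 to 0.15 log2. Fitted differences were negative for 24 of the 32 genes, with a median of -0.19 log2 against 0.01 over all genes. At an unadjusted p under 0.05, 12 members were lower (37.5%), against 6.36% of all genes, and 3 were higher, against 9.95%. The 3 mutants lay below the 3 controls for 14 members, against 9.98% of all genes, and above them for 2, against 11.7%. DESeq2 called 6 members lower (Acacb, Elovl2, Elovl5, Pnpla3, Acss2 and Slc25a1), against 2.21% of the genes it tested. Fra2 control 1 enters this comparison only through the shared filter, scaling and spread. Without it, edgeR called 3 members lower (Acacb, Pnpla3 and Acss2), against 1.07% of all genes in that fit. In bulk liver, fewer cells of a type and less RNA per cell cannot be told apart.

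With Fra-2, edgeR called 0 of the 32 genes, against 1.07% of all genes (0.845% higher and 0.22% lower). At an unadjusted p under 0.05, 3 members were lower and 1 was higher, against 4.86% and 6.6% of all genes. DESeq2 called 1 member higher, Lpin3, and 1 lower, Slc25a1, against 2.14% and 0.896% of the genes it tested. With limma-voom 0 members were called, against 0.995% of all genes. Fitted differences were negative for 21 of 32, with a median of -0.21 log2 against -0.01 over all genes. Without Fra2 control 1 that median was -0.40, and edgeR again called 0 members, against 0.787% of all genes in that fit. Mutants lay below controls for 3 members (Slc25a1, Elovl2 and Dgat1) and above them for 1 (Lpin3), against 8.17% and 9.31% of all genes.

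The average of the effects in both strains uses 6 mutants and 6 controls and shares its libraries with the comparisons above. Here 4 of the 32 genes were called (12.5%), against 6.24% of all genes. Lpin3 was called higher, against 4.33% of all genes, while Slc25a1, Acss2 and Elovl2 were called lower, against 1.9%. Over all genes 610 were called higher and 268 lower, or 939 and 187 without scaling factors. At an unadjusted p under 0.05, 13 members were lower, against 8.26% of all genes, and 1 was higher, against 11.2% (19.4% in either direction). The median of the 32 average effects was -0.15 log2, and 26 were negative. Without Fra2 control 1, 8 members were called lower: the 3 named above and Acaca, Acacb, Fasn, Pnpla3 and Acsl5. In that fit 2.1% of all genes were called lower.

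**Figure D1:**
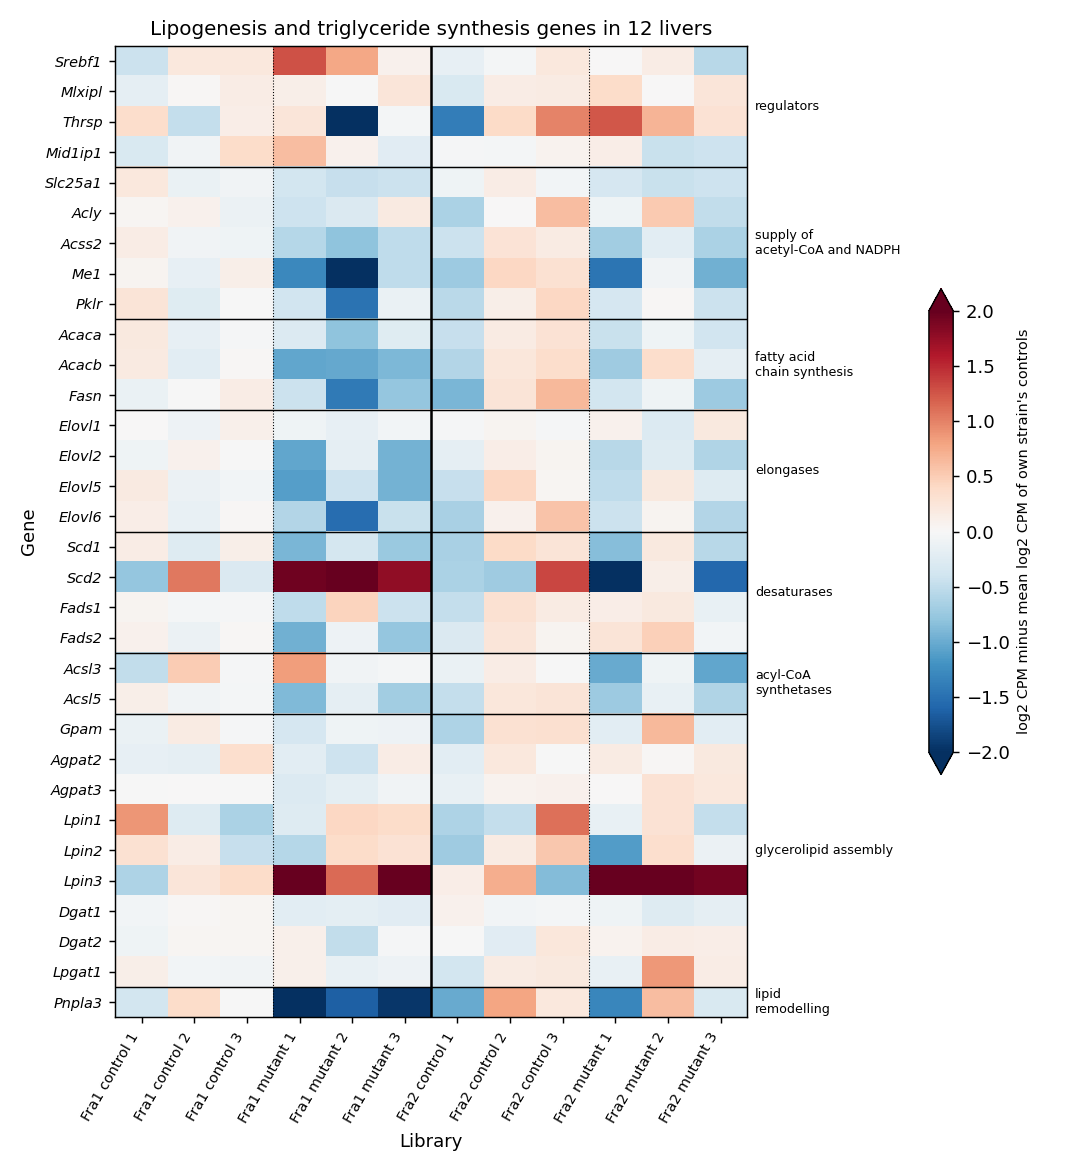
Level of each of the 32 genes in each of the 12 libraries, as log2 CPM minus the mean log2 CPM of the controls of the same strain (colour scale capped at -2 and 2), with genes in rows by role and libraries in columns by group. The Lpin3 row is high in all 6 mutant columns, Fra2 control 1 is the lowest of its group for 27 of 32 genes, and Fra2 mutant 2 is the highest of its group for 25.

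**Figure D2:**
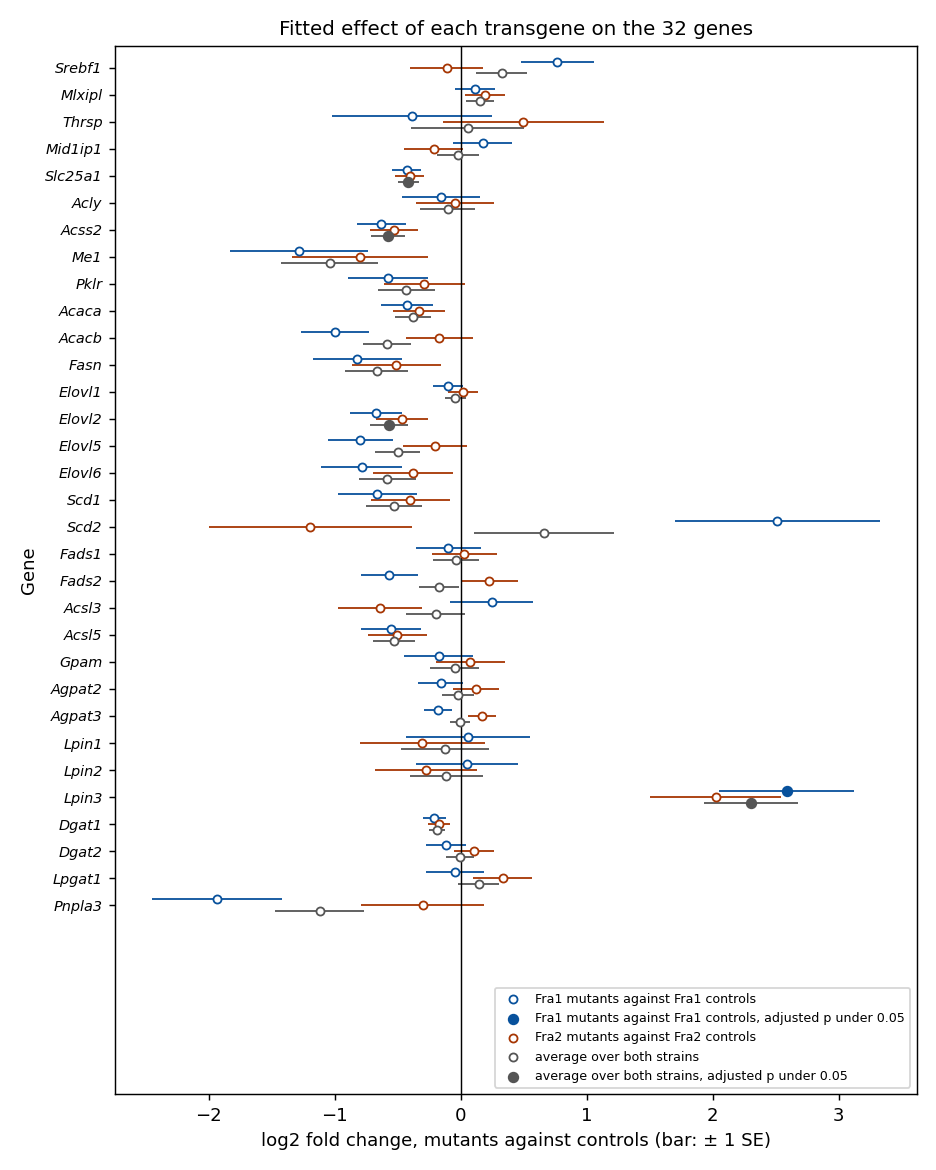
Fitted log2 fold change of mutants against controls for each gene, with bars of 1 standard error, in the Fra1 strain, the Fra2 strain and their average; filled points have an adjusted p under 0.05. Lpin3 is filled on the right in Fra1 and in the average, and Slc25a1, Acss2 and Elovl2 are filled on the left in the average.

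The regulators had median differences near 0 or above it. These were 0.15 log2 in Fra1 and 0.04 in Fra2, and none of the 4 was called in either strain. Srebf1 encodes SREBP-1, the insulin-responsive activator of lipogenic genes. Its level was 231, 359.7 and 358 CPM in Fra1 controls and 752, 531 and 330.5 CPM in Fra1 mutants. In the Fra2 strain it was 262, 285 and 339 CPM in controls and 294, 327 and 199.9 CPM in mutants. Fra1 mutant 1 was the highest of the 12 libraries, and the groups overlapped in both strains. The fitted difference for Srebf1 was 0.77 ± 0.29 log2 (SE) in Fra1 (adjusted p = 0.203) and -0.11 ± 0.29 in Fra2 (adjusted p = 0.936). Exons of Srebf1 overlap those of Rai1 on the other strand, so its value also depends on how the counting treated strand.

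Mlxipl encodes ChREBP, the sugar-responsive activator. It stood at 634, 731 and 791 CPM in Fra1 controls, with 773, 711 and 849 CPM in Fra1 mutants. In Fra2hep mice controls had 592, 809.9 and 822 CPM and mutants 942, 736 and 869.9 CPM. Groups overlapped, and neither difference for Mlxipl passed the test (0.11 ± 0.16 log2, adjusted p = 0.789, in Fra1; 0.20 ± 0.16, adjusted p = 0.721, in Fra2). Thrsp (Spot 14), a lipogenic cofactor, ranged from 87.6 CPM in Fra1 mutant 2 to 882 CPM in Fra2 mutant 1, and its control range in Fra2 alone was 143 to 738 CPM. Mid1ip1, a relative of Thrsp that promotes polymerisation of acetyl-CoA carboxylase, ranged from 45.5 to 105 CPM with overlapping groups.

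Around these regulators, a list of 13 genes of SREBP and LXR control was fully tested. In Fra1 edgeR called 0 higher and 3 lower, against 2.9% and 0.938% of all genes. In Fra2 it called 0, against 1.07%, with 1 higher and 3 lower at an unadjusted p under 0.05, against 6.6% and 4.86%. In the average it called 4 lower, against 1.9%, and 0 higher, against 4.33%. Insig2 encodes a protein that holds SREBP in the endoplasmic reticulum. It had 166, 159.5 and 200.4 CPM in Fra1 controls and 63.1, 73.9 and 100.3 CPM in Fra1 mutants, groups that did not overlap. For the Fra2 groups the 6 libraries lay between 198 and 241 CPM. Insig2 fell by 1.15 ± 0.16 log2 in Fra1 (adjusted p = 0.00214), and its fitted Fra2 difference was 0.10 ± 0.16 (adjusted p = 0.884). The difference between these effects was 1.25 ± 0.23 log2 (adjusted p = 0.168) and was not called.

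Scap, which escorts SREBP to the Golgi, had 173, 177 and 157 CPM in Fra1 controls and 114, 118 and 124 CPM in Fra1 mutants. Scap fell by 0.51 ± 0.10 log2 in Fra1 (adjusted p = 0.0142) and by 0.39 ± 0.07 in the average (adjusted p = 0.00592). Usf2, an E-box factor of lipogenic promoters, fell by 0.68 ± 0.15 log2 in Fra1 (adjusted p = 0.0267). Pparg, a nuclear receptor that drives fat storage, was called only in the average, where it fell by 1.14 ± 0.21 log2 (adjusted p = 0.00792). Its levels ran from 6.73 to 10.3 CPM in Fra1 controls against 2.58 to 6.30 in mutants, and from 9.50 to 13.3 CPM in Fra2 controls against 3.58 to 5.51 in mutants.

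All 5 supply genes had negative differences in both strains, with medians of -0.58 log2 in Fra1 and -0.40 in Fra2. In the average 2 of the 5 were called lower, against 1.9% of all genes. Slc25a1 is the mitochondrial citrate carrier, which delivers the carbon for fatty acid synthesis to the cytosol (ENSMUSG00000003528.15, chr16:17925223-17928219, minus strand, GRCm38). It had 329, 260.1 and 272 CPM in Fra1 controls and 221, 208 and 211 CPM in Fra1 mutants. In the Fra2 strain it had 253, 297 and 258 CPM in controls and 213, 196 and 201 CPM in mutants. All 6 mutants lay below all 6 controls, as for 1.13% of all genes, and among the members Dgat1 did so too. The reverse, all mutants above all controls, held for 0 members and 2.47% of all genes. Slc25a1 fell by 25.0% in the average (-0.42 ± 0.08 log2, adjusted p = 0.0110). The fitted effects in the 2 strains were -0.43 ± 0.12 log2 in Fra1 (adjusted p = 0.0717) and -0.40 ± 0.12 in Fra2 (adjusted p = 0.159).

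Acss2 makes cytosolic acetyl-CoA from acetate (ENSMUSG00000027605.18, chr2:155517948-155585724, plus strand). Its level was 497, 426 and 420.0 CPM in Fra1 controls and 299, 255 and 315 CPM in Fra1 mutants. In Fra2hep mice it was 364, 591 and 546 CPM in controls and 302, 423 and 317 CPM in mutants. The Fra1 groups did not overlap, and Fra2 mutant 2 lay above Fra2 control 1. Acss2 fell by 33.0% in the average (-0.58 ± 0.14 log2, adjusted p = 0.0276), with effects of -0.63 in Fra1 (adjusted p = 0.109) and -0.53 in Fra2 (adjusted p = 0.299). Exons of Acss2 overlap Acss2os, Ggt7 and Gss on the other strand. The average for Acss2 was called in 4 of 12 fits with 1 library left out (Fra1 control 3, Fra1 mutant 3, Fra2 control 1 or Fra2 mutant 2), and the other fits gave adjusted p from 0.0506 to 0.0764.

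Me1, malic enzyme, makes NADPH for the synthase. Its level was 167, 144 and 174 CPM in Fra1 controls and 65.7, 20.1 and 113 CPM in Fra1 mutants, groups that did not overlap. For the Fra2 groups Me1 had 106, 235 and 218 CPM in controls and 63.6, 167 and 90.5 CPM in mutants, which overlapped. Its differences were -1.28 ± 0.55 log2 in Fra1 (adjusted p = 0.272) and -0.80 ± 0.54 in Fra2 (adjusted p = 0.652). Acly, which cleaves citrate to acetyl-CoA, ranged from 304 to 795 CPM with overlapping groups and fitted differences of -0.16 and -0.05 log2. Pklr, the liver pyruvate kinase, ranged from 196 CPM in Fra1 mutant 2 to 722 CPM in Fra2 control 3, with differences of -0.58 and -0.29 log2 that did not pass the test. Among 12 further genes of NADPH supply and glucose entry, Pgd of the pentose phosphate pathway rose by 1.32 ± 0.23 log2 in Fra1 (adjusted p = 0.00835). In the average Pgd rose by 1.15 log2 (adjusted p = 0.00147), and G6pdx, the first enzyme of that pathway, fell by 0.98 (adjusted p = 0.0330).

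The 3 genes of chain synthesis all had negative differences in both strains, with medians of -0.82 log2 in Fra1 and -0.33 in Fra2, and none was called in the strains or in their average. Acacb encodes ACC2, the carboxylase at the mitochondrion whose product restrains fatty acid oxidation. It had 190.1, 145 and 171 CPM in Fra1 controls and 81.5, 82.3 and 89.9 CPM in Fra1 mutants. In the Fra2 strain it had 121, 210.5 and 231 CPM in controls and 111, 230.2 and 159 CPM in mutants. The Fra1 mutants were tightly grouped below their controls, whereas the Fra2 groups overlapped. The difference for Acacb was -1.0 ± 0.27 log2 in Fra1 (adjusted p = 0.0725) and -0.17 ± 0.27 in Fra2 (adjusted p = 0.884). DESeq2 called Acacb lower in Fra1 (adjusted p = 0.00904).

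Acaca encodes ACC1, the cytosolic carboxylase that commits acetyl-CoA to lipogenesis. It had 70.0, 54.8 and 59.9 CPM in Fra1 controls and 50.8, 35.1 and 51.8 CPM in mutants, and 42.0, 64.7 and 70.2 CPM in Fra2 controls with 42.4, 54.3 and 44.1 CPM in mutants. Only the Fra1 groups did not overlap, and the differences were -0.42 ± 0.21 log2 (adjusted p = 0.333) in Fra1 and -0.33 ± 0.21 (adjusted p = 0.617) in Fra2. Per kilobase of exon, the summed level of Acaca and Acacb was 21.1 ± 2.77 (SD, n = 3) in Fra1 controls and 11.5 ± 0.888 in Fra1 mutants, of which Acacb gave most.

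Fasn, fatty acid synthase, had 910.2, 985 and 1101 CPM in Fra1 controls and 739, 372 and 585 CPM in Fra1 mutants. In Fra2hep mice it had 573, 1297 and 1689.6 CPM in controls and 837, 1014 and 649 CPM in mutants. Fra2 control 1 was the lowest of the 6 Fra2 libraries and Fra2 control 3 the highest of all 12. The difference for Fasn was -0.82 ± 0.35 log2 in Fra1 (adjusted p = 0.275) and -0.51 ± 0.35 in Fra2 (adjusted p = 0.657), with an average of -0.67 ± 0.25 (adjusted p = 0.163). Without Fra2 control 1 the average was called, with an adjusted p of 0.0223.

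**Figure D3:**
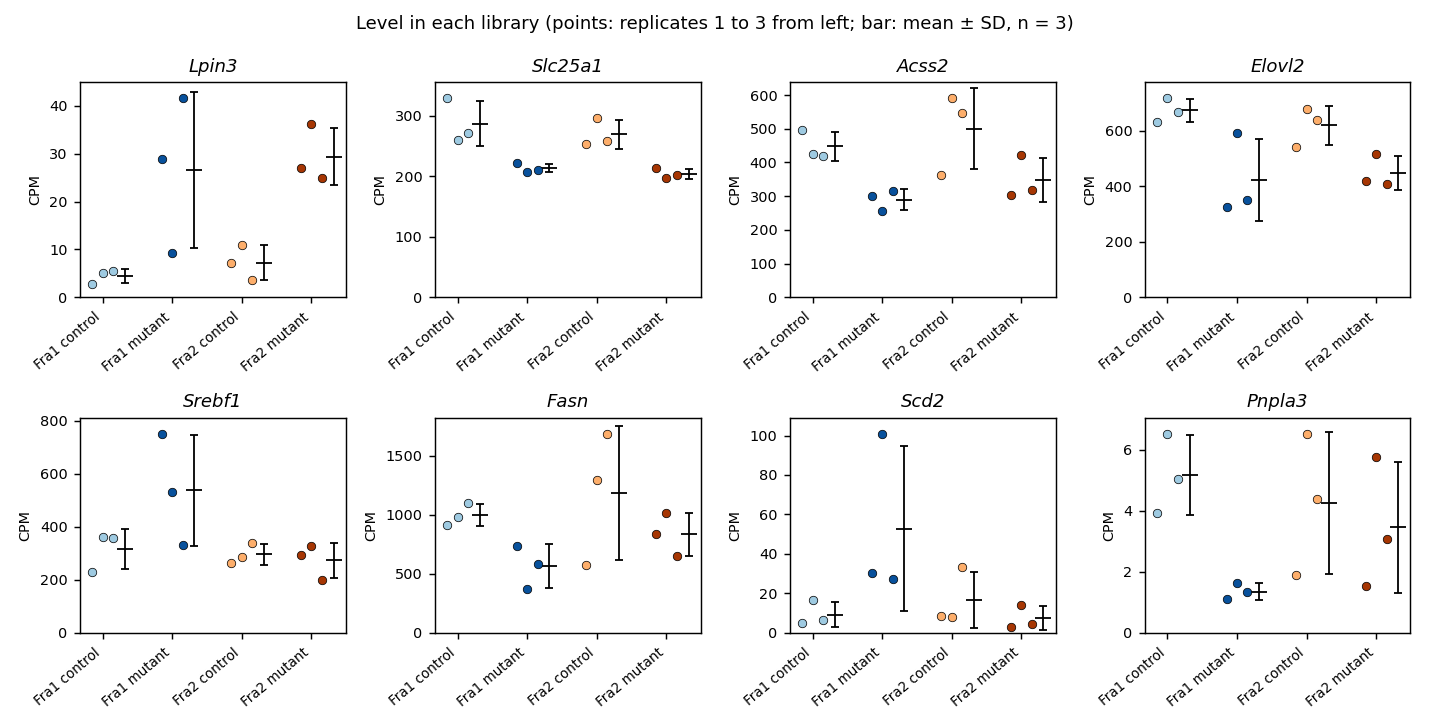
CPM of Lpin3, Slc25a1, Acss2, Elovl2, Srebf1, Fasn, Scd2 and Pnpla3 in each library, with 1 point per mouse, a bar for the mean ± SD of each group of 3, and linear axes from 0. All 6 mutants lie below all 6 controls for Slc25a1, while the Fra2 points of Fasn spread from 573 to 1689.6 CPM and overlap.

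All 4 elongases had negative differences in Fra1 and in the average, and 3 of the 4 in Fra2. Elovl2, which extends long polyunsaturated chains toward the precursor of DHA, was called lower in the average (ENSMUSG00000021364.16, chr13:41182381-41220405, minus strand). It had 634, 718 and 670.0 CPM in Fra1 controls and 327, 592 and 350.3 CPM in Fra1 mutants. For the Fra2 groups it had 543, 678 and 638 CPM in controls and 420.2, 518 and 408 CPM in mutants. Groups did not overlap within either strain, and Fra1 mutant 2 alone lay above Fra2 control 1. Elovl2 fell by 32.6% in the average (-0.57 ± 0.15 log2, adjusted p = 0.0441), with -0.67 ± 0.21 in Fra1 (adjusted p = 0.115) and -0.47 ± 0.21 in Fra2 (adjusted p = 0.425). The average for Elovl2 was called in 2 of 12 fits with 1 library left out (Fra1 mutant 2 or Fra2 control 1), and the other fits gave adjusted p from 0.0536 to 0.110. Without Fra1 mutant 2, the highest of its group, the Fra1 difference was -0.99 log2 (adjusted p = 0.00527). Leaving out the highest mutant lowers the mutant mean, so that fit is no separate evidence of a decrease.

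Elovl5, the elongase of shorter polyunsaturated chains, had 874, 714 and 749 CPM in Fra1 controls and 364, 582 and 402 CPM in Fra1 mutants, without overlap. Its Fra2 values were 580.3, 1064 and 824 CPM in controls and 561, 917 and 668 CPM in mutants, which overlapped. The difference for Elovl5 was -0.79 ± 0.26 log2 in Fra1 (adjusted p = 0.127) and -0.20 ± 0.25 in Fra2 (adjusted p = 0.835). Elovl6 takes the palmitate made by Fasn to stearate. It had 126, 104 and 118 CPM in Fra1 controls and 76.7, 40.2 and 84.7 CPM in Fra1 mutants, with 76.0, 126 and 177 CPM in Fra2 controls and 88.2, 124 and 79.5 CPM in Fra2 mutants. Only its Fra1 groups were apart, and its difference there was -0.78 ± 0.32 log2 (adjusted p = 0.250), against -0.38 ± 0.32 (adjusted p = 0.737) in Fra2. Elovl1, which extends saturated very long chains, ranged from 41.5 to 67.7 CPM and had differences of -0.10 and 0.02 log2.

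Per kilobase of exon, the summed level of these 4 elongases was 432 ± 16.2 (SD, n = 3) in Fra1 controls and 266 ± 66.0 in Fra1 mutants, and 428 ± 90.8 in Fra2 controls and 350.1 ± 66.7 in Fra2 mutants. In a list of 16 related chain enzymes, 13 were tested. Acsl4, which activates arachidonic acid, rose by 1.74 ± 0.21 log2 in Fra1 (adjusted p = 0.0007) and by 0.98 ± 0.20 in Fra2 (adjusted p = 0.0454). Hacd2, the dehydratase of the elongation cycle, rose in the average by 0.51 ± 0.11 log2 (adjusted p = 0.0164).

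Desaturases put double bonds into the chain. Scd1, the main stearoyl-CoA desaturase of liver, had the highest level per kilobase of the 32 genes, with a median of 2411 CPM per kilobase over the 12 libraries. It had 16094, 12138 and 15852 CPM in Fra1 controls and 7713, 11456 and 8738 CPM in Fra1 mutants. In the Fra2 strain it had 8251, 16840.5 and 15389 CPM in controls and 7176, 14740.2 and 8783 CPM in mutants. The Fra1 groups did not overlap, and in Fra2 both groups held low and high libraries. The difference for Scd1 was -0.66 ± 0.31 log2 in Fra1 (adjusted p = 0.321) and -0.40 ± 0.31 in Fra2 (adjusted p = 0.702).

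Scd2, the desaturase form of many tissues other than adult liver, was low, with a median of 2.08 CPM per kilobase. It had 4.64, 16.4 and 6.46 CPM in Fra1 controls and 30.2, 101 and 27.0 CPM in Fra1 mutants. In Fra2hep mice it had 8.50, 8.04 and 33.1 CPM in controls and 3.10, 14.2 and 4.41 CPM in mutants. The Fra1 mutants lay above their controls. The highest library, Fra1 mutant 2, was also the highest in the summed lymphocyte markers, at 34.8 CPM against 11.9 to 26.0 in the others. Fra1 mutants 1 and 3 held 14.7 and 17.8 CPM of those markers. Fra2 mutant 1 held 26.0 CPM of them and had the lowest Scd2 level of all libraries. The part of those cells in the level of Scd2 was not tested. Its difference was 2.51 ± 0.81 log2 in Fra1 (adjusted p = 0.136) and -1.19 ± 0.80 in Fra2 (adjusted p = 0.650). The difference of the effects for Scd2 was -3.71 ± 1.14 log2 (unadjusted p = 0.00801, adjusted p = 0.554).

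Fads1 and Fads2 are the desaturases of polyunsaturated chains. Fads1 ranged from 415 to 948 CPM with overlapping groups and differences of -0.10 and 0.03 log2. Fads2 ranged from 768 to 879 CPM in Fra1 controls and from 425 to 774 in Fra1 mutants, and from 520.0 to 751 CPM in Fra2 controls and 616 to 889 in Fra2 mutants. Its differences were -0.57 ± 0.23 log2 in Fra1 (adjusted p = 0.235) and 0.23 ± 0.23 in Fra2 (adjusted p = 0.781). Without Fra1 mutant 2 the adjusted p in Fra1 was 0.0390. That mouse was the highest Fra1 mutant for Fads2, so leaving it out lowers the mutant mean.

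The acyl-CoA synthetases activate fatty acids for use. Acsl5 had 785, 685 and 699 CPM in Fra1 controls and 393, 639 and 447 CPM in Fra1 mutants, without overlap. Its Fra2 levels were 537, 869.8 and 891 CPM in controls and 452, 677 and 494 CPM in mutants, with mutant 2 above control 1. The difference for Acsl5 was -0.55 ± 0.24 log2 in Fra1 (adjusted p = 0.271) and -0.50 ± 0.24 in Fra2 (adjusted p = 0.454), with an average of -0.53 ± 0.17 (adjusted p = 0.0961). Acsl3, found on lipid droplets, ranged from 21.3 to 70.1 CPM with differences of 0.25 and -0.64 log2 that did not pass the test, and its exons overlap Utp14b on the same strand. Of the relatives of these genes, Acsl1 fell by 1.14 ± 0.24 log2 in Fra1 (adjusted p = 0.0224). Its fitted Fra2 difference was -0.03 ± 0.24 (adjusted p = 0.987), and the difference between strains was 1.12 ± 0.34 log2 (adjusted p = 0.528).

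Of the 9 genes of glycerolipid assembly, only Lpin3 was called in any comparison, and the medians of the 9 were -0.12 log2 in Fra1 and 0.11 in Fra2. Lipins remove the phosphate from phosphatidate to give diacylglycerol, and Lpin3 is 1 of the 3 lipin genes (ENSMUSG00000027412.12, chr2:160880670-160906002, plus strand). Its level was 2.74, 4.96 and 5.43 CPM in Fra1 controls and 28.9, 9.22 and 41.6 CPM in Fra1 mutants. For the Fra2 groups it was 7.18, 10.9 and 3.62 CPM in controls and 27.0, 36.2 and 24.9 CPM in mutants. These values rest on 42 to 195 counts per control library and 175 to 819 per mutant library. Mutants lay above their own controls in both strains, and the lowest mutant, Fra1 mutant 2, lay below Fra2 control 2. Lpin3 rose 6.02-fold in Fra1 (2.59 ± 0.54 log2, adjusted p = 0.0226), and the fitted value in Fra2 was 2.02 ± 0.52 log2 (adjusted p = 0.121, or 0.0280 in the fit without Fra1 mutant 2). In the average it rose by 2.31 ± 0.37 log2 (adjusted p = 0.00415).

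The Fra1 call for Lpin3 was lost without any 1 of Fra1 controls 1, 2 and 3 and Fra1 mutants 1 and 3, with adjusted p from 0.0575 to 0.111, and limma-voom gave 0.0859. The average for Lpin3 was called in all 12 fits with 1 library left out. Of 8 stellate cell markers edgeR called 2 higher and 0 lower in Fra1, against 2.9% and 0.938% of all genes. Dcn rose by 0.86 ± 0.12 log2 (adjusted p = 0.00239) and Lum by 1.33 ± 0.23 (adjusted p = 0.00819). Differences were positive for 6 of the 8 and negative for 2 in Fra1. In Fra2 they were positive for 3 and negative for 5, with 0 called, against 1.07% of all genes. The 8 stellate markers summed to 220.1 to 265 CPM in Fra1 controls and 347 to 417 in Fra1 mutants, but to 301 to 335 CPM in Fra2 controls and 255 to 318 in Fra2 mutants, where Lpin3 mutants were also above controls. The part of those cells in the Lpin3 level was not tested.

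Shares within the lipin family are described here without a test. Lpin1, which is induced by fasting, ranged from 52.8 to 254 CPM and Lpin2 from 101 to 322 CPM, each with overlapping groups and differences between -0.30 and 0.06 log2. Per kilobase of exon, Lpin3 made up 5.68% ± 3.32 of the lipin sum (SD, n = 3) in Fra1 controls and 23.5% ± 13.4 in Fra1 mutants. Fra1 mutant 2 at 8.15% lay within the range of the controls, of which control 3 was highest at 8.92%. In the Fra2 strain the share was 6.78% ± 4.29 in controls and 23.0% ± 3.85 in mutants, without overlap. Summed over the 3 lipins, the level per kilobase was 24.0 ± 8.06 and 30.8 ± 7.27 in Fra1 controls and mutants and 35.5 ± 16.6 and 35.4 ± 10.8 in Fra2, ranges that overlapped.

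**Figure D4:**
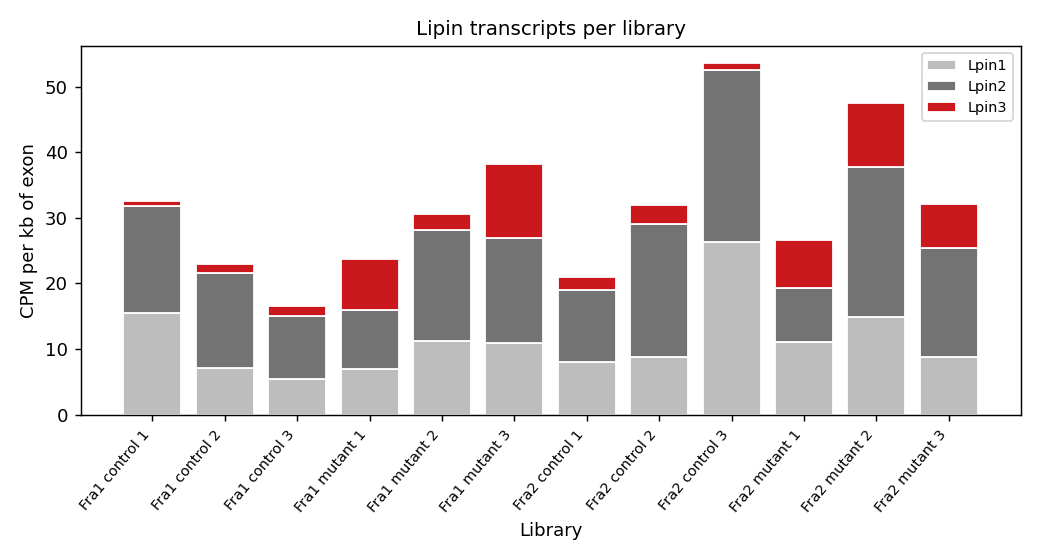
Level of Lpin1, Lpin2 and Lpin3 per kilobase of exon in each of the 12 libraries, as stacked bars in CPM per kilobase on a linear axis from 0. Lpin3 makes up 1.83% to 9.29% of the sum in control libraries and 8.15% to 33.0% in mutant libraries, while Lpin1 and Lpin2 overlap between groups.

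Gpam, the mitochondrial acyltransferase that starts glycerolipid synthesis, had 240.0, 294 and 259 CPM in Fra1 controls and 208, 248 and 247 CPM in Fra1 mutants. Its Fra2 levels were 214, 407 and 409 CPM in controls and 285, 517 and 285 CPM in mutants. Groups overlapped, and the differences for Gpam were -0.17 ± 0.27 log2 (adjusted p = 0.812) in Fra1 and 0.08 ± 0.27 (adjusted p = 0.956) in Fra2. Agpat2 and Agpat3 add the second chain: Agpat2 ranged from 174 to 294 CPM and Agpat3 from 187 to 268 CPM. Agpat3 mutants lay below controls in Fra1 (-0.18 ± 0.11 log2) and overlapped in Fra2 (0.17 ± 0.11), and the difference of these effects had an unadjusted p of 0.0481 and an adjusted p of 0.787. Lpgat1, an acyltransferase of lysophospholipids, ranged from 106 to 249 CPM with differences of -0.05 and 0.33 log2.

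The last step, from diacylglycerol to triglyceride, is run by Dgat1 and Dgat2. Dgat2, which is tied to newly made fatty acids, had 482, 527 and 529 CPM in Fra1 controls and 549, 366 and 506 CPM in Fra1 mutants. In Fra2hep mice it had 489, 422 and 575 CPM in controls and 517, 542 and 541 CPM in mutants. Groups overlapped, with differences for Dgat2 of -0.11 ± 0.16 log2 (adjusted p = 0.786) and 0.11 ± 0.16 (adjusted p = 0.874). Dgat1 had 25.2, 26.5 and 26.9 CPM in Fra1 controls and 22.6, 23.0 and 22.4 CPM in Fra1 mutants, and 26.8, 24.3 and 24.7 CPM in Fra2 controls with 23.9, 21.2 and 22.3 CPM in Fra2 mutants. All 6 mutants lay below all 6 controls, but the difference was small, at -0.21 ± 0.09 log2 in Fra1 (adjusted p = 0.276), -0.17 ± 0.09 in Fra2 (adjusted p = 0.527) and -0.19 ± 0.06 in the average (adjusted p = 0.119).

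Among 13 related acyltransferases and lipin-path enzymes, all of them tested, 1 was called higher in Fra1 and in the average. Of all genes, 2.9% and 4.33% were called higher there. Plpp2, a lipid phosphate phosphatase of the cell surface, rose by 1.53 ± 0.29 log2 in Fra1 (adjusted p = 0.0129) and by 1.13 ± 0.20 in the average (adjusted p = 0.00648). In Fra2 edgeR called 0 of the 13, and 2 were higher at an unadjusted p under 0.05, against 6.6% of all genes. Of 10 genes of triglyceride breakdown and export, edgeR called 0 in each strain. At an unadjusted p under 0.05, 2 were higher and 3 lower in Fra1, against 9.95% and 6.36% of all genes. In Fra2 2 were higher and 0 lower, against 6.6% and 4.86%. Apob, the scaffold of secreted lipoproteins, rose in the average by 0.80 ± 0.16 log2 (adjusted p = 0.0117).

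Pnpla3, a lipid droplet protein whose gene is a target of SREBP-1c, had the most negative Fra1 difference of the 32. Its level was 3.92, 6.53 and 5.06 CPM in Fra1 controls and 1.09, 1.63 and 1.32 CPM in Fra1 mutants, which rest on 20 to 133 counts per library. For the Fra2 groups it was 1.88, 6.53 and 4.37 CPM in controls and 1.52, 5.78 and 3.06 CPM in mutants. The Fra1 groups were well apart, and the Fra2 groups overlapped. The difference for Pnpla3 was -1.94 ± 0.52 log2 in Fra1 (adjusted p = 0.0674) and -0.30 ± 0.49 in Fra2 (adjusted p = 0.884). DESeq2 called it lower in Fra1 (adjusted p = 0.00419). Its exons overlap Gm49513 on the same strand.

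No member passed the test for a difference in response between the strains. For the difference of the effects, Fra2 minus Fra1, edgeR called 0 of the 32 genes, against 0.0355% of all genes (0.0071% higher and 0.0284% lower). At an unadjusted p under 0.05, 3 members were higher (Pnpla3, Fads2 and Agpat3) and 1 was lower (Scd2), against 2.29% and 4.03% of all genes, or 6.32% in either direction. The difference was positive for 25 of the 32, with a median of 0.17 log2 against -0.01 over all genes. Fra2 control 1, the lowest of its group for 27 of the 32, enters this difference. Without that library the Fra2 median was more negative, as given above. DESeq2 and limma-voom also called 0 members for the difference, against 0.499% and 0.0284% of the genes each tested. Between Fra2 and Fra1 controls edgeR called 0 of the 32 genes, as it called 0% of all genes, and 1 member, Elovl1, had an unadjusted p under 0.05 (-0.33 ± 0.12 log2), against 5.35% of all genes (3.26% higher and 2.09% lower). The control levels of Elovl1 and Fads2 did not overlap between strains, both lower in Fra2, as for 4.82% of all genes, and 0 members lay higher in Fra2 without overlap, against 5.28%.

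Feeding state alters these genes, and the labels used here state neither feeding nor the hour of death. A list of 10 fasting-induced genes had negative differences in all 10 in Fra1, against 49.0% of all genes. Of the 10, 1 was called lower, against 0.938% of all genes. It was G6pc, the last enzyme of glucose output, which fell by 1.64 ± 0.35 log2 (adjusted p = 0.0261). The 10 genes summed to 4839 to 6616 CPM in Fra1 controls and 2268 to 3755 in Fra1 mutants, and to 5037 to 8189.6 CPM in Fra2 controls and 6106 to 8117 in Fra2 mutants. In Fra2, 5 of the 10 differences were negative and 0 were called or had an unadjusted p under 0.05. Of 12 clock genes edgeR called 0 in either strain, and 0 had an unadjusted p under 0.05. The hepatocyte markers, 9 of 10 tested, summed to 106896 to 152687 CPM in Fra1 controls and 75177 to 129816 in Fra1 mutants. Their sums were 128795 to 147292 CPM in Fra2 controls and 82248 to 88554 in Fra2 mutants. Differences were negative for 7 of the 9 in Fra1 and 4 of the 9 in Fra2, with 0 called in either strain. At an unadjusted p under 0.05, 1 was higher and 2 were lower in Fra1, and 1 higher and 3 lower in Fra2. Over all genes these shares were 9.95% and 6.36% in Fra1 and 6.6% and 4.86% in Fra2. In the average Apoa1 was called lower (-1.02 ± 0.23 log2, adjusted p = 0.0219). Markers of macrophages, endothelial cells, cholangiocytes and lymphocytes held 0 called genes in either strain by edgeR. At an unadjusted p under 0.05, 1 of 7 lymphocyte markers was higher in Fra1 and 1 of 7 endothelial markers lower in Fra2. Of 8 adipocyte markers 3 were tested, with 0 called in either strain. At that level 2 of these 3 were higher in Fra1, against 9.95% of all genes, while the other difference there was negative. In Fra2 0 of the 3 passed that level. The part of feeding state or cell composition in the differences of the 32 genes was not tested.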

How the data were processed

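Liver RNA from 12 mice was made into stranded libraries after enrichment for polyadenylated transcripts, per the labels' protocols. As deposited by the authors, the values are whole-number raw counts for each gene. The submitters' processing notes name STAR 2.6.1a, RSEM, bedtools 2.27.1, DESeq2 1.22.2 and the mouse build GRCm38. Which of these counted the reads, with which annotation, strand setting and rule for multiply matching reads: not given in the sources used here. Values of paralogs and overlapping genes carry that uncertainty.

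Groups were taken from the titles. Analysis ran in edgeR 4.0.16 under R 4.3.3: filterByExpr by group removed low genes, libraries were scaled by TMM factors, and 4 group means were fitted over all 12 libraries by the robust quasi-likelihood model, which shares 1 estimate of the spread. Tests were two-sided, with Benjamini-Hochberg adjustment over all genes tested. Standard errors were derived from the test statistic. Gene positions and exon lengths are from GENCODE M21 on GRCm38, promoters from RefSeq. The scripts were tested on simulated data. Counts may include PCR copies.

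The 32 genes, the other gene lists and the tests were chosen with earlier results of these data known. All 32 genes are named. Values per library are given for those called in any comparison, those with an unadjusted p under 0.05 and groups that did not overlap in a strain, and Srebf1, Mlxipl, Acaca, Fasn, Scd1, Gpam and Dgat2; other lists name up to 4 called genes per comparison. Alternatives were RLE factors, no scaling, other filters, DESeq2 1.42.0, limma-voom (limma 3.58.1), a fit of only the compared libraries, a replicate block, and each library left out.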

Additional observations from a re-analysis of the deposited data

How the results depend on the processing

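No called effect changed sign, and the medians of the 32 genes moved by less than the spread between libraries under every alternative run. That spread includes Fra2 control 1, whose median deviation was -0.46 log2. Leaving this library out made the Fra2 median more negative, as given above. Numbers of calls moved more. With DESeq2 the Fra1 comparison gave 674 genes higher and 331 lower, with 6 members lower, and the Fra2 comparison gave 311 and 130, with 1 member higher and 1 lower. DESeq2 also gave 21 higher and 49 lower for the difference of the effects, 497 lower with 7 members lower for the average, and 16 higher and 1 lower between the controls. Without scaling factors, 674 genes were higher in Fra1, and the average gave 939 higher with 1 member lower. With no filter on low counts, 0 members were called higher in Fra1, 8 genes were lower for the difference, and 3 were higher between controls. With limma-voom 0 members were called higher in Fra1. A fit of only the libraries compared gave 0 members higher and 2 lower in Fra1, and 71 genes higher and 19 lower in Fra2. The cause of these shifts was not tested.

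Leaving out each library in turn gave 215 to 429 genes higher and 52 to 153 lower in Fra1, with 0 to 1 members higher and 0 to 3 lower. In Fra2 it gave 45 to 143 higher and 7 to 41 lower, with 0 to 1 members higher, the 1 being Lpin3 without Fra1 mutant 2. For the difference it gave 0 to 2 higher and 0 to 12 lower, and between controls 0 to 1 higher. For the average it gave 160 to 301 genes lower and 1 to 8 members lower, the 8 being without Fra2 control 1.

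The replicate numbers of the titles did not pair the samples: same-numbered mutants and controls deviated from their group means with correlations of -0.09, 0.04 and 0.05 in Fra1 and 0.09, 0.01 and -0.17 in Fra2. With the replicate number as a block, Fra1 gave 83 genes lower, 0 members higher and 2 lower, Fra2 gave 78 genes higher and 20 lower, and the average gave 173 lower with 4 members lower. In that average Slc25a1 was no longer called (adjusted p = 0.0511), Acss2 and Elovl2 were still called, and Acacb (0.0287) and Pnpla3 (0.0079) were called too.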
